A study of Mus musculus with 6 samples.

Results

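The genes described here are 35 immediate-early and activation response genes of the mouse, listed by name: the AP-1 genes Fos, Fosb, Fosl1, Fosl2, Jun, Junb, Jund and Atf3, the Egr, Ier, Dusp, Spry, Nr4a, Klf, Zfp36 and Btg genes, Myc, and the surface activation genes Cd69 and Cd83. Members were chosen by symbol, taking probe sets whose platform annotation gives exactly 1 symbol, and all 35 were measured, each by 1 probe set, out of 19937 genes measured in this way. RNA came from 230-238, a mouse B-cell line, infected either with a plasmid for green fluorescent protein (the GFP group, 3 samples) or with a plasmid for GFP together with FOG1 (the GFP+FOG1 group, 3 samples). Both groups were cultured for 3 days, sorted for GFP fluorescence and cultured for 4 more days, and 100 ng of total RNA isolated without DNase treatment was amplified and hybridised to 1 array per sample. Both groups carry GFP, so the groups differ by the FOG1 insert. The promoter driving the insert and the amount of FOG1 protein were not used here. The replicates are called biological in the labels, which do not say whether infections were separate, so the tests measure the spread between these samples.

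Immediate-early genes are transcribed within minutes of a stimulus, from promoters where factors such as SRF and CREB are already bound and are switched on by kinases of the ERK, JNK and p38 pathways. Their products are mostly short-lived: transcription factors of the AP-1, EGR, NR4A and KLF families, phosphatases and Sprouty proteins that feed back on ERK, and ZFP36 proteins that destroy AU-rich messenger RNAs. In B cells they follow engagement of the B-cell receptor and mark recently activated cells, as do the surface proteins CD69 and CD83. FOG1, the product of Zfpm1, is a cofactor through which GATA factors act in blood lineages.

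The values are log2 signals as deposited, and a change is the GFP+FOG1 mean minus the GFP mean in log2 units. Array medians lay between 6.98 and 7.04 and pairs of arrays correlated at 0.9925 to 0.9960. Zfpm1 read 9.41, 9.49 and 9.43 on the GFP arrays against 10.21, 10.16 and 10.17 with FOG1 (log2 change 0.74, limma adjusted p = 0.0038), so each array matched its label. Of 11 measured B-lineage markers, 10 reached the median of all values, and the log2 of their summed signal was 15.36 to 15.39 with GFP and 15.24 to 15.29 with FOG1. The largest difference in that list was in Cd79a, a chain of the B-cell receptor, at -0.41 in log2 units, which missed the threshold (limma adjusted p = 0.088). At an unadjusted p under 0.05 there were 3 of the 11 (27.3%, against 11.0% of all genes). Besides Cd79a these were Cd79b, lower at -0.16, and Rag2, higher at 0.23 with means below the median of all values. Among markers of other cell types, 1 of 6 T-cell, 1 of 6 NK-cell, 1 of 6 erythroid and megakaryocyte and 2 of 10 monocyte, macrophage and neutrophil genes reached that median. In the last of these lists 9 of 10 changes were negative (90%, against 54.2% of all genes), and in the NK-cell list 5 of 6 (83.3%). Of the 10 genes 8 lay below the median of all values and may in part be background, as may 5 of the 6 NK-cell genes. The log2 of the summed signal of the 10 was 10.47 to 10.62 with GFP and 10.30 to 10.34 with FOG1. Among the 10, Itgam, the integrin chain CD11b, had a mean of 8.07 with GFP and 6.96 with FOG1. It was thus 2.16-fold lower with FOG1 and passed (log2 change -1.11, limma adjusted p = 0.0075), and its part in the lower values given further on was not tested. Fibroblast markers reached the median of all values for 4 of 6 genes, namely the collagen genes Col1a1, Col1a2 and Col3a1 and the surface glycoprotein gene Thy1, and the collagen genes varied between arrays in a way that is set beside the results further on.

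None of the 35 genes passed the threshold of an adjusted p under 0.05, and the smallest adjusted p was 0.12 (limma, Benjamini-Hochberg over all 34760 probe sets, of which 0.224% passed). At an unadjusted p under 0.05 there were 4: Cd69, Dusp5 and Klf2 were lower with FOG1 and Dusp6 was higher. That is 11.4% of the 35, against 11.0% of all 19937 genes. These same 4 were the genes whose groups did not overlap (11.4%, against 20.8% of all genes). The first share was close to that of all genes and the second was below it. Without probe sets whose mean lay below the median of all values, 2963 of 17315 probe sets reached an unadjusted p under 0.05. The same 4 genes did so among the 34 members left, a smaller share. The 35 changes ran from -0.36 (Fosb) to 0.30 (Dusp6) with a median of -0.05, beside a median of -0.01 over all genes. Of the 35, 30 had a negative change, as did 54.2% of all genes, and this count was 30 after quantile normalization and 27 after centring each array on its median. In bulk RNA, fewer cells of a type and less RNA per cell cannot be told apart in any of these values. All but Nr4a3 had a mean signal at or above the median of all values.

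**Figure D1:**
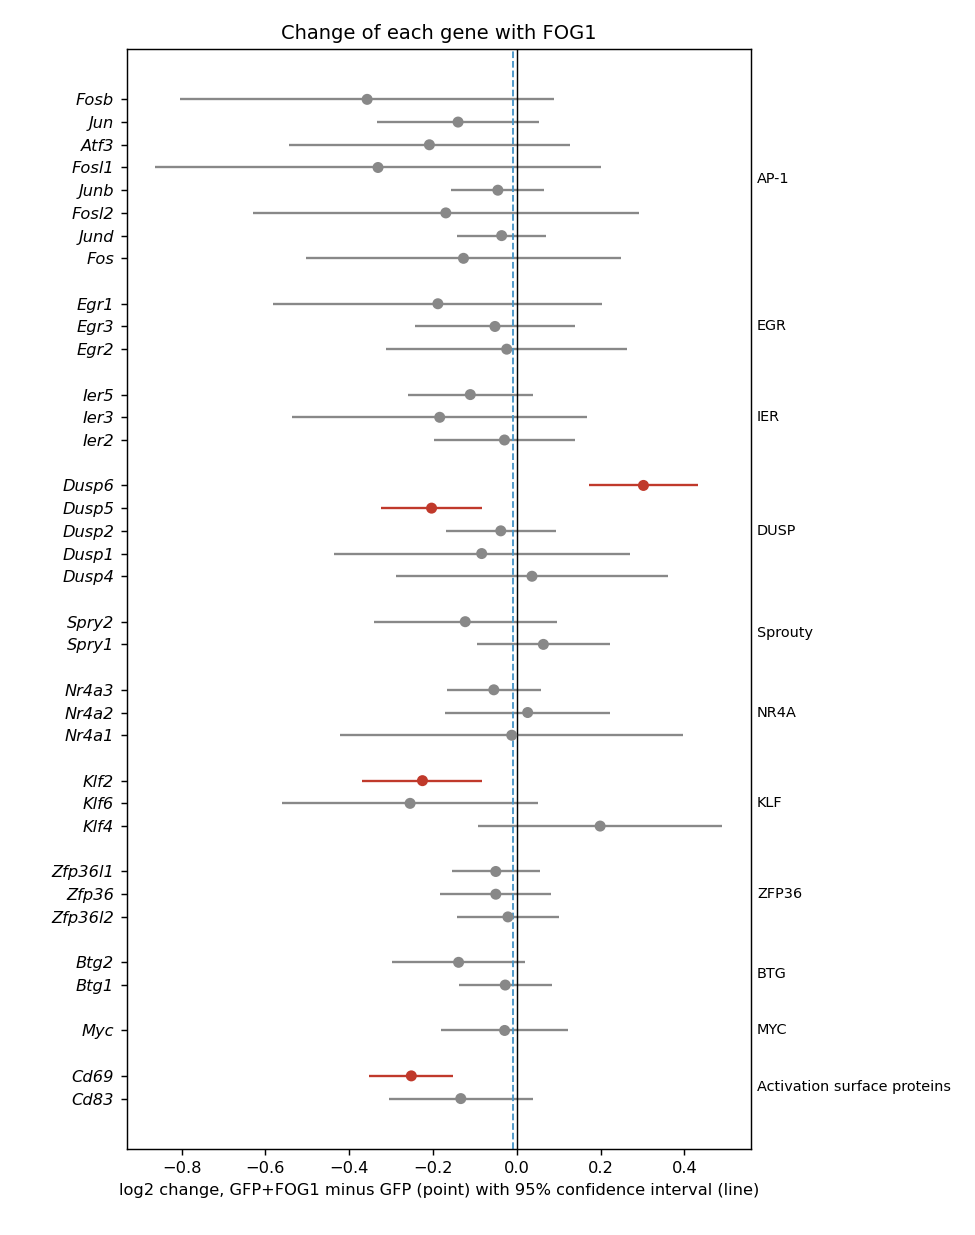
Log2 change of each of the 35 genes, GFP+FOG1 minus GFP, with points for the change and lines for its 95% confidence interval from limma, grouped by family. Red marks the 4 genes whose groups do not overlap, Dusp6, Dusp5, Klf2 and Cd69, and the dashed line is the median of all genes at -0.01.

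The 35 genes divided by how much they differed between arrays of the same group. In 11 of them the SD among the 3 GFP+FOG1 arrays was 0.2 or more, namely Fos, Fosb, Fosl1, Fosl2, Atf3, Egr1, Ier3, Dusp1, Dusp4, Nr4a1 and Klf6. This was 31.4% of the 35, against 4.39% of all genes. Among the GFP arrays 2 of the 35 reached that SD (5.71%, against 2.47% of all genes). In all 11, GFP+FOG1 replicate 1 was the highest and replicate 3 the lowest of the FOG1 arrays. Over the 35, GFP+FOG1 replicate 3 held the lowest of all 6 values in 21 genes (60.0%, against 18.1% of all genes). The median over the 35 genes of the signal minus the GFP mean was 0.02, -0.11 and -0.14 on GFP+FOG1 replicates 1, 2 and 3, and -0.04, 0.08 and -0.01 on the GFP arrays. Over all genes the same medians lay between -0.03 and 0.02 on every array. The 0.2 limit was set after the values were seen, and no test was made on the division.

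**Figure D2:**
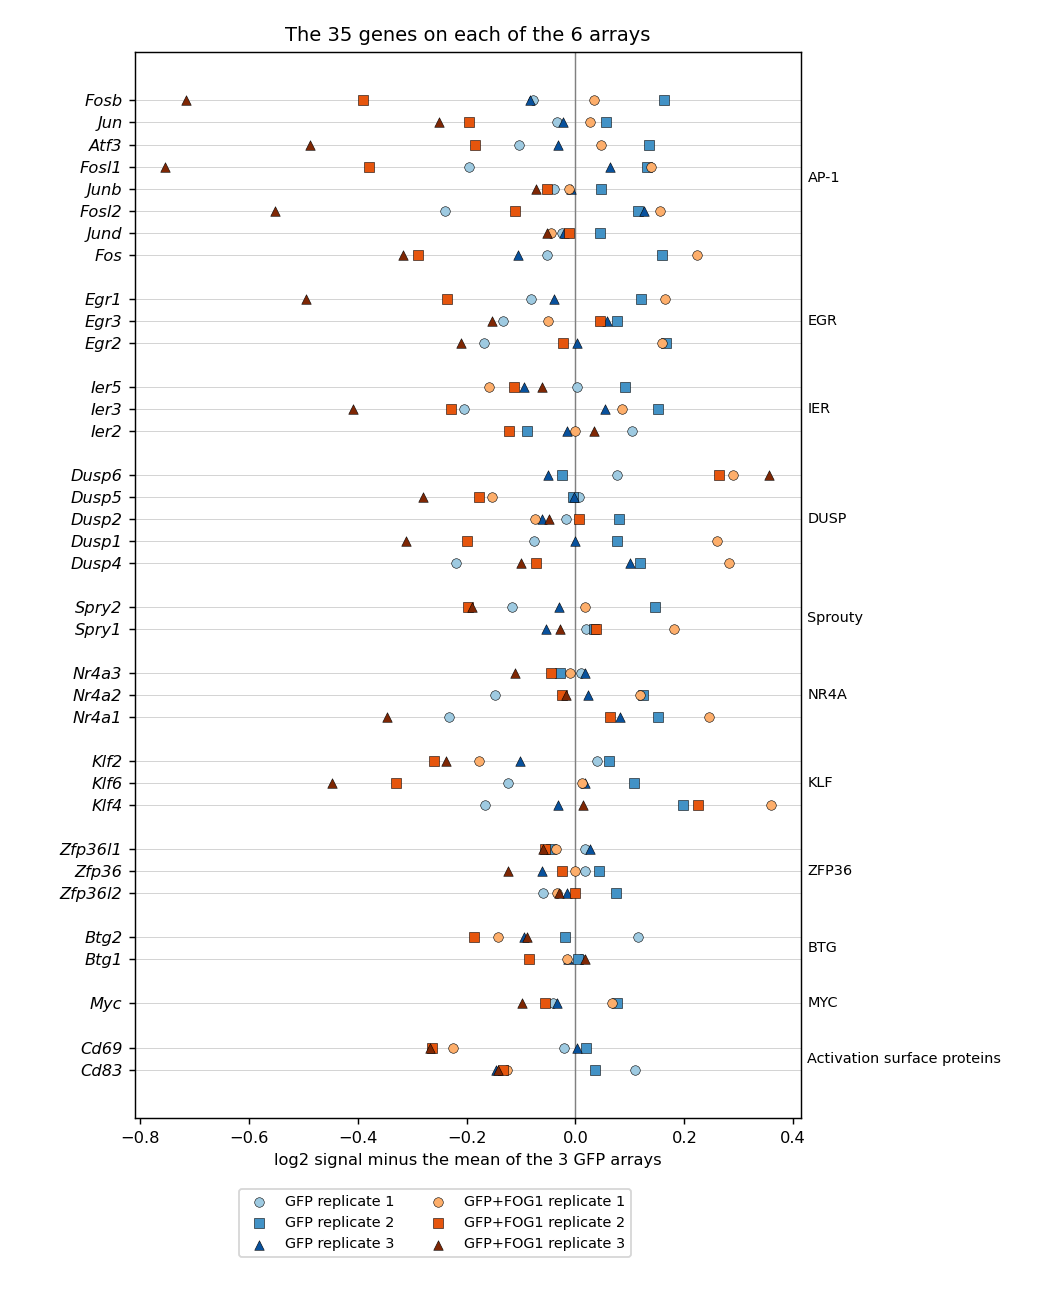
Log2 signal of each of the 35 genes on each array, as the difference from the mean of the 3 GFP arrays (blue for GFP, orange and brown for GFP+FOG1, 1 symbol per replicate). In Fosb the GFP+FOG1 arrays spread from among the GFP arrays to well below them, and in Fosl1, Fosl2 and Egr1 from just above them to well below. In Cd69, Klf2 and Dusp5 all 3 GFP+FOG1 arrays lie below the GFP arrays and in Dusp6 above them.

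The AP-1 genes encode leucine zipper proteins that bind DNA as pairs of a Jun and a Fos or ATF partner. All 8 had negative changes with a median of -0.15, none had groups that did not overlap, and the adjusted p lay between 0.47 and 0.76 (limma). Fosb, a Fos protein gene, had signals of 11.08, 11.32 and 11.08 on GFP replicates 1 to 3 and of 11.20, 10.77 and 10.45 on GFP+FOG1 replicates 1 to 3 (log2 change -0.36, SE 0.186). The first FOG1 array thus lay among the controls and the other two below them. Fosl1, which encodes the Fos-related protein FRA-1, read 9.12, 9.44 and 9.38 with GFP and 9.45, 8.93 and 8.56 with FOG1 (-0.33, SE 0.221). Its range among the FOG1 arrays, 0.89, was larger than its change. Atf3, a stress-induced ATF gene, read 8.24, 8.47 and 8.31 with GFP and 8.39, 8.15 and 7.85 with FOG1 (-0.21), and Fosl2, the gene of FRA-2, had a change of -0.17 that turned to 0.02 without GFP+FOG1 replicate 3. Fos, the founding member, read 7.82, 8.04 and 7.77 with GFP and 8.10, 7.59 and 7.56 with FOG1 (-0.13). The Jun genes differed less between arrays. Jun, the main partner of Fos, read 10.12, 10.21 and 10.13 with GFP and 10.18, 9.96 and 9.90 with FOG1 (-0.14). Junb and Jund, Jun proteins with weaker activation than Jun, had changes of -0.05 and -0.04 and ranged over 0.06 and 0.04 among the FOG1 arrays.

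Promoter windows from RefSeq (build GRCm38.p6, from 250 bases before to 50 after each start site) were found for 26 of the 35 genes and were searched on both strands for the core of the CREB site, TGACG, the EGR site GCGNGGGCG, the SRF site known as the CArG box, and GATAA, the core bound by GATA factors. The 26 genes have 30 windows, since Egr2 has 5 of them, some overlapping, and shares are of windows. The CREB core was present in 17 of the 30 windows (56.7%, of 15 genes), against 20.8% of all 32851 windows. The EGR site was present in 9 of the 30 (30%, of 9 genes), against 5.55% of all windows. The CArG box was present in 6 of the 30 (20%, of the 3 genes Dusp5, Egr2 and Zfp36), against 1.63%, and GATAA in 3 of the 30 (10%, of Atf3, Dusp6 and Jun), against 25.4%. A match is a run of letters in this window and not a measured site. The windows compared were not matched for base composition, and its part in these shares was not tested. The stretches below, each the 150 bases before the start site, belong to 3 genes whose FOG1 arrays spread widely, and capitals mark the CREB core and the EGR site on either strand. Fos lies at chr12:85473740-85473889 on the plus strand, Fosb at chr7:19310046-19310195 on the minus strand and Nr4a1 at chr15:101266696-101266845 on the plus strand.
Fos: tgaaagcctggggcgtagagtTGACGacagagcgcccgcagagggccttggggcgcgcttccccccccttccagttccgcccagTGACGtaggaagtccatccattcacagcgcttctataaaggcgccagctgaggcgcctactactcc
Fosb: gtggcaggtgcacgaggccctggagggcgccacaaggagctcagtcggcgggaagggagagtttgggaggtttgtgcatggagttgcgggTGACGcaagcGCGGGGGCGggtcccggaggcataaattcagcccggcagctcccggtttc
Nr4a1: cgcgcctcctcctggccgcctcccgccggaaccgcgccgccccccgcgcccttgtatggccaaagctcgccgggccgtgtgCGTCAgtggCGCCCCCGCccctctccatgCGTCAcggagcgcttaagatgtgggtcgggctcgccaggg

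The NR4A genes encode orphan nuclear receptors, and Nr4a1 is widely used as a reporter of B-cell receptor signalling. Their changes were close to 0, with a median of -0.01. Nr4a1 read 9.26, 9.64 and 9.57 with GFP and 9.74, 9.55 and 9.14 with FOG1 (log2 change -0.01, 95% confidence interval -0.42 to 0.40, and 0.01 after median centring). Its highest and its lowest value were both on FOG1 arrays. Nr4a2 had a change of 0.03. Nr4a3, whose signal lay below the median of all values and may in part be background, read 5.82, 5.79 and 5.83 with GFP and 5.80, 5.77 and 5.70 with FOG1 (-0.05, limma adjusted p = 0.65).

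The EGR genes encode zinc finger factors induced through ERK and SRF. Egr1 descended over the FOG1 arrays as Fosb did, with 9.63, 9.83 and 9.67 on the GFP arrays and 9.88, 9.48 and 9.22 on the FOG1 arrays (-0.19, SE 0.163, limma adjusted p = 0.66). Its first FOG1 array lay above all the controls and the others below them. Egr2 and Egr3, which restrain lymphocyte activation, had changes of -0.02 and -0.05, and the small change of Egr2 was 0.001 after median centring. Among the IER genes, short-lived early response genes, Ier3 varied most, with 7.79, 8.15 and 8.05 against 8.08, 7.77 and 7.59 (-0.18). Ier5 read 8.20, 8.29 and 8.10 with GFP and 8.04, 8.08 and 8.13 with FOG1 (-0.11). Its lowest value was on GFP+FOG1 replicate 1, as in 2 of the 35 genes, the other being Dusp2. Ier2 had a change of -0.03. Over EGR and IER genes the adjusted p lay between 0.50 and 0.95 (limma).

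The DUSP genes encode dual-specificity phosphatases that remove the activating phosphates of MAP kinases, and they held changes of opposite direction. Dusp6, a cytoplasmic phosphatase of ERK that is itself induced by ERK, read 9.67, 9.57 and 9.55 on the GFP arrays and 9.89, 9.86 and 9.95 on the FOG1 arrays. All 3 FOG1 arrays lay above all GFP arrays, by a mean of 1.23-fold (log2 change 0.30, SE 0.0541, 95% confidence interval 0.17 to 0.43, limma adjusted p = 0.14). Dusp5, a nuclear phosphatase of ERK, read 10.40, 10.38 and 10.39 with GFP and 10.24, 10.21 and 10.11 with FOG1. It was thus 1.15-fold lower with groups that did not overlap (-0.20, SE 0.0499, 95% confidence interval -0.32 to -0.08, limma adjusted p = 0.23). The other members showed no separation of the groups. Dusp1, which acts on JNK, p38 and ERK in the nucleus, read 11.09, 11.24 and 11.16 with GFP and 11.42, 10.97 and 10.85 with FOG1, so that its FOG1 arrays lay on both sides of all the controls (-0.08). Dusp2, a nuclear phosphatase of lymphocytes, had a change of -0.04 and Dusp4 of 0.04. Of 9 measured further dual-specificity phosphatase genes outside the 35, 1 was lower at an unadjusted p under 0.05 (11.1%, against 6.11% of all genes) and none was higher. The lower gene was Dusp3, at -0.20 (limma adjusted p = 0.28).

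The windows of Dusp5 and Dusp6 are shown because these were the phosphatases whose groups separated, in opposite directions, and because their windows differ in the motifs found. The 150 bases before the start of Dusp5, at chr19:53528995-53529144 on the plus strand, hold 2 adjoining CArG boxes, here in capitals as 1 run from 82 to 63 bases before the start, and also a TGACG on the opposite strand that is left in lower case. The stretch of Dusp6, at chr10:99262981-99263130 on the plus strand, reaches from 250 to 101 bases before the start and holds GATAA on the opposite strand, in capitals.
Dusp5: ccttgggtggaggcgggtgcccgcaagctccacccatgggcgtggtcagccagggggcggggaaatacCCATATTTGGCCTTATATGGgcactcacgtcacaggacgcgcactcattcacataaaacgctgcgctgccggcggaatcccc
Dusp6: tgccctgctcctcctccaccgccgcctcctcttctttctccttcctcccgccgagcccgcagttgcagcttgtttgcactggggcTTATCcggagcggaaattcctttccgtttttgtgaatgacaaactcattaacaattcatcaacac

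Dusp6 belongs to the genes that report ERK activity, as do the Sprouty genes and the ETS factor genes Etv4 and Etv5. Spry1 had a change of 0.06, and Spry2 read 7.15, 7.41 and 7.24 with GFP and 7.28, 7.07 and 7.08 with FOG1 (-0.12, limma adjusted p = 0.60). Both Sprouty genes had overlapping groups. Of 10 measured genes of ERK feedback and ETS targets outside the 35, none passed and 1 was higher at an unadjusted p under 0.05 (10%, against 4.92% of all genes). This was Etv5, at 8.04, 8.04 and 8.17 with GFP and 8.39, 8.45 and 8.52 with FOG1 (log2 change 0.37, limma adjusted p = 0.12), whose other probe set had a change of 0.09. Etv4 was at -0.02, Etv1 at -0.05 and the Sprouty gene Spry4 at -0.05, each with overlapping groups. The ERK inhibitor gene Spred1 had a change of 0.13 and Phlda1, an ERK-induced gene, of -0.17. Groups did not overlap in 2 of the 10, Etv5 and Spred1, both higher (20%, against 20.8% of all genes). The list's median was -0.05, and 8 of its 10 changes were negative (80%, against 54.2% of all genes). The lowest changes, in Errfi1 (-0.23) and Ccnd1 (-0.20), came with SD of 0.59 and 0.44 among the FOG1 arrays.

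The KLF genes encode zinc finger factors, of which KLF2 maintains quiescence and guides the trafficking of lymphocytes. Klf2 read 9.58, 9.61 and 9.44 with GFP and 9.37, 9.28 and 9.31 with FOG1, 1.17-fold lower without overlap (-0.23, SE 0.0596, 95% confidence interval -0.37 to -0.08, limma adjusted p = 0.25). Klf6 read 9.18, 9.41 and 9.32 against 9.31, 8.97 and 8.85 (-0.25), with the wide FOG1 spread of the AP-1 genes. Klf4 stood on the other side, at 8.70, 9.07 and 8.84 against 9.23, 9.09 and 8.88 (0.20), with overlapping groups. Neither passed (limma adjusted p = 0.46 and 0.53). Of 6 listed genes of lymphocyte trafficking that are linked to KLF2, 5 were measured. All 5 were lower at an unadjusted p under 0.05, as were 6.11% of all genes, and their median was -0.22. The list was chosen with earlier results of these data known, so this count describes it and is not a test. Cd55, a complement regulator, read 8.45, 8.33 and 8.32 with GFP and 7.87, 8.01 and 8.06 with FOG1 (-0.39). S1pr1, the receptor by which lymphocytes leave tissues, read 9.88, 9.64 and 9.58 against 9.51, 9.28 and 9.45 (-0.29). Itgb7, an integrin chain for homing to the gut, had a change of -0.22. Its means, 6.76 with GFP and 6.54 with FOG1, lay below the median of all values and may in part be background. The other two were the chemokine receptor gene Cxcr5 and the sphingosine phosphate receptor gene S1pr4, and none of the 5 passed (limma adjusted p = 0.14 to 0.36). Leaving out 1 array lowered the count of 5 to between 2 (without GFP replicate 2) and 4, with 3 without GFP replicate 1, GFP replicate 3, GFP+FOG1 replicate 2 or GFP+FOG1 replicate 3.

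The window of Klf2 is shown because its groups separated while other genes with the same motifs did not. The stretch from 250 to 101 bases before its start, at chr8:72318812-72318961 on the plus strand, holds TGACG and GCGNGGGCG, in capitals.
Klf2: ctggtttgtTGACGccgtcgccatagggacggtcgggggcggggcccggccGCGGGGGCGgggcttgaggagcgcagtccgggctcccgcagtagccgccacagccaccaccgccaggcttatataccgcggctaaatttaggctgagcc

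The genes of growth control and messenger RNA decay differed little between the groups, and in none of them did the groups stand apart. Zfp36, Zfp36l1 and Zfp36l2, whose proteins bind AU-rich messenger RNAs and hasten their decay, had changes of -0.05, -0.05 and -0.02, and that of Zfp36l2 was 0.004 after median centring. Zfp36l1 read 10.72, 10.65 and 10.72 with GFP and 10.66, 10.64 and 10.64 with FOG1. Btg2, an antiproliferative gene and p53 target, read 10.75, 10.61 and 10.54 against 10.49, 10.45 and 10.54 (-0.14, limma adjusted p = 0.44), and Btg1, its relative in quiescent lymphocytes, had a change of -0.03. Myc, which drives growth, had a change of -0.03 (95% confidence interval -0.18 to 0.12).

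Of the surface proteins of activation, Cd69, a lectin that retains lymphocytes in tissue by removing S1PR1 from the surface, read 10.56, 10.60 and 10.58 with GFP and 10.35, 10.32 and 10.31 with FOG1. It had the smallest p of the 35 and was 1.19-fold lower, with groups apart and narrow (-0.25, SE 0.0417, 95% confidence interval -0.35 to -0.15, limma adjusted p = 0.12). It passed when the variance was estimated with a trend and robustly (limma adjusted p = 0.033), a setting in which 0.334% of all probe sets passed. Cd83, a stabiliser of MHC class II, read 7.63, 7.55 and 7.37 with GFP and 7.39, 7.39 and 7.38 with FOG1 (-0.13, limma adjusted p = 0.48). Its GFP replicate 3 lay at the FOG1 level. Among 11 measured further surface proteins of activation, 3 were lower at an unadjusted p under 0.05 (27.3%, against 6.11% of all genes) and none was higher. They were Slamf1 (-0.67), the costimulatory receptor gene Cd40 (-0.23) and the adhesion gene Cd44 (-0.18), with limma adjusted p of 0.18, 0.22 and 0.29. The means of Slamf1, 6.82 with GFP and 6.15 with FOG1, lay below the median of all values and may in part be background. The list was chosen with earlier results of these data known, so its share is a description and not a test.

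The wide spread of the AP-1, EGR and related genes among the FOG1 arrays went together with fibroblast markers. Col1a1, a chain of type I collagen, read 9.53, 9.73 and 9.70 with GFP and 9.90, 9.61 and 8.99 with FOG1. Its highest and lowest values were on GFP+FOG1 replicates 1 and 3, as for Nr4a1. Col1a2 read 9.11, 9.38 and 9.25 against 9.55, 9.21 and 8.71, Col3a1 between 7.80 and 8.02 on the GFP arrays against 8.14, 8.08 and 7.67, and the growth factor receptor gene Pdgfra 6.95, 7.04 and 7.02 against 7.24, 6.87 and 6.65. The proteoglycan gene Dcn, with a mean of 5.78 ± 0.08 with GFP and 5.85 ± 0.07 with FOG1 (SD, n = 3 each), lay below the median of all values, and Thy1 did not follow the collagen genes. The log2 of the summed signal of the 6 markers ranged from 11.07 to 11.19 with GFP and from 10.68 to 11.30 with FOG1. In 4 of these 6, and in 23 of the 35 genes (65.7%, against 18.5% of all genes), the FOG1 arrays descended from replicate 1 to 2 to 3. In 4 of the 6 and 15 of the 35 (42.9%, against 9.47% of all genes) GFP replicate 1 was also the lowest GFP array. The part of these markers in the values of the 35 genes was not tested. In Dusp6, Dusp5, Klf2 and Cd69 the SD among the FOG1 arrays was 0.05, 0.07, 0.04 and 0.02, against 0.46 for Col1a1. These genes were picked out by a small p and by groups that did not overlap, and both favour a small SD.

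**Figure D3:**
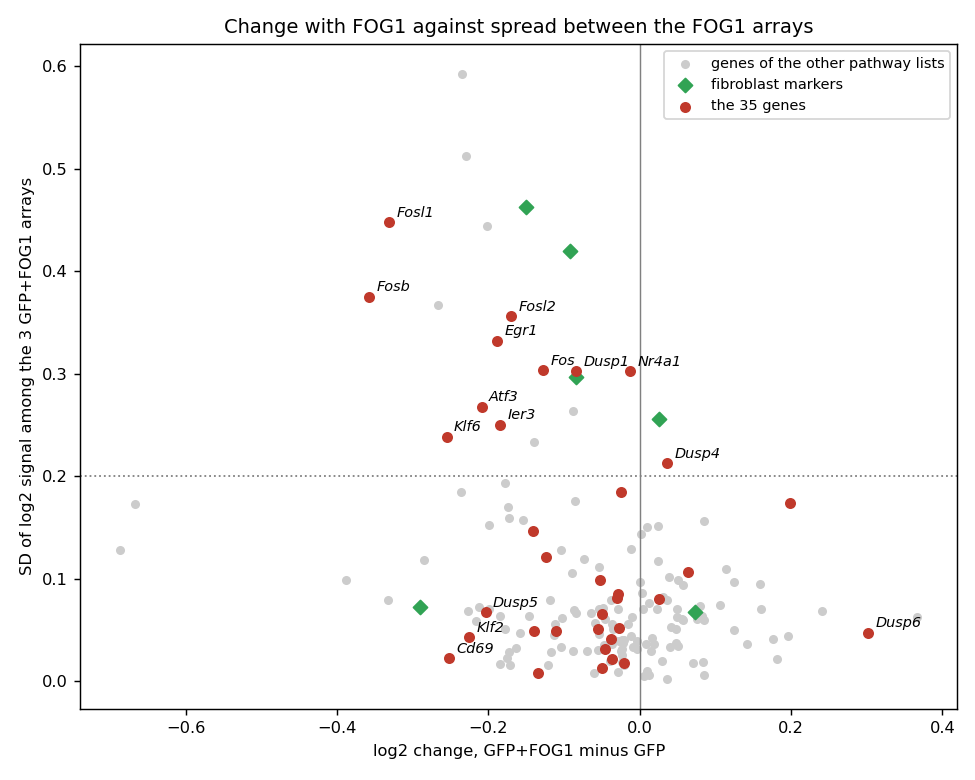
SD of the log2 signal among the 3 GFP+FOG1 arrays (vertical) against the log2 change (horizontal) for the 35 genes in red, fibroblast markers in green and genes of the other pathway lists in grey. The 11 genes above the dotted line at 0.2 are joined there by 4 of the 6 fibroblast markers and 6 of the 133 pathway genes. Cd69, Klf2, Dusp5 and Dusp6, picked out by a small p, which favours a small SD, lie near the bottom, with SD of 0.02 to 0.07.

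**Figure D4:**
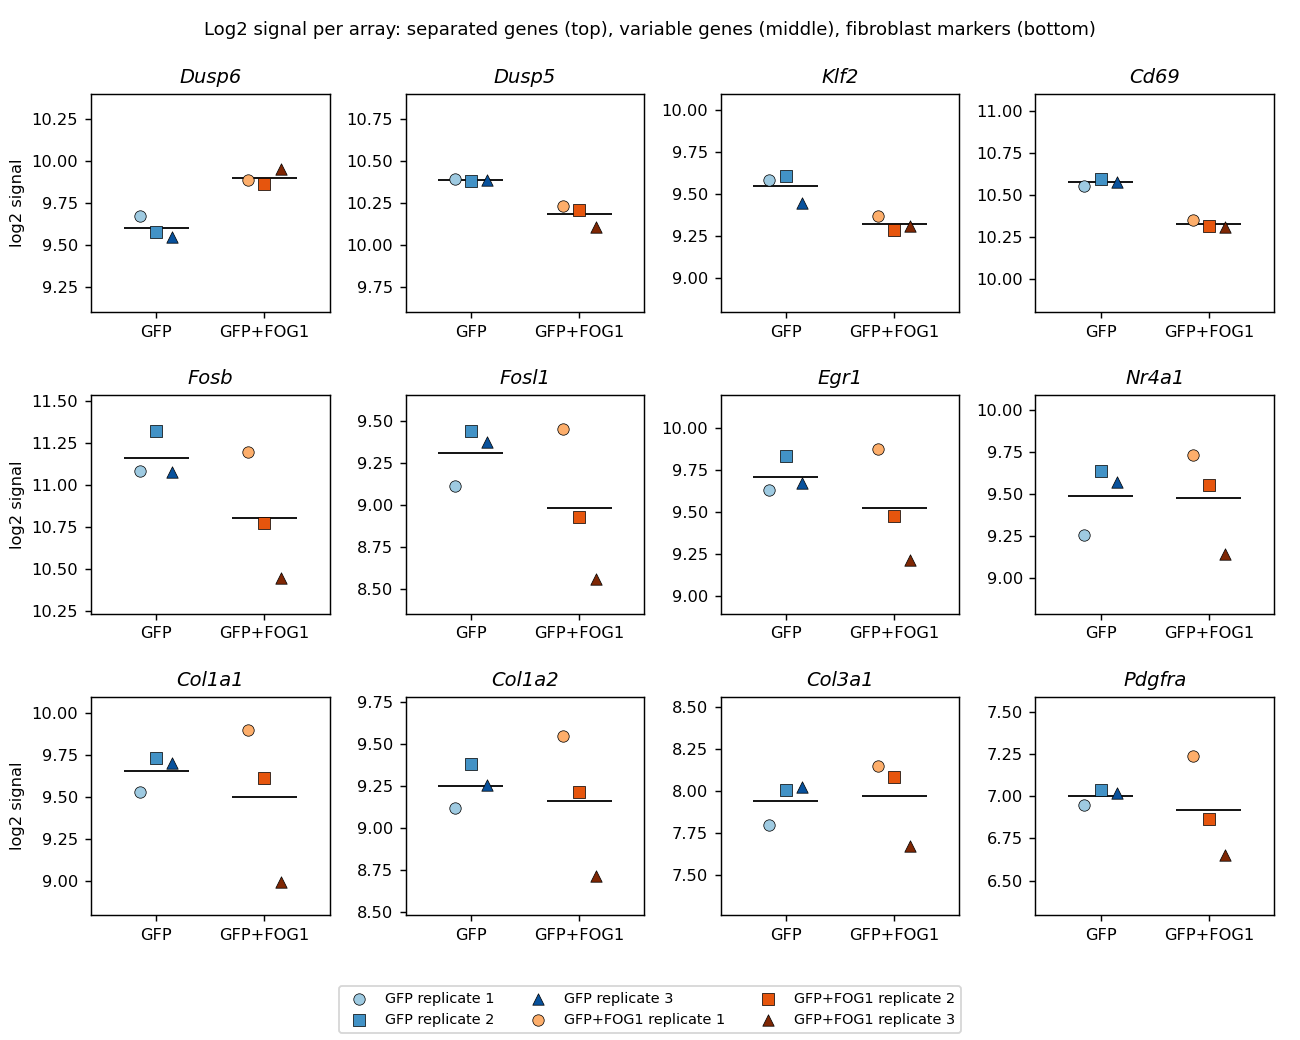
Log2 signal per array for the 4 genes whose groups did not overlap (top), 4 genes with a wide spread among the FOG1 arrays (middle) and 4 fibroblast markers (bottom), each panel spanning the same number of log2 units, with bars for group means. In the middle and bottom rows GFP+FOG1 replicate 1 is the highest and replicate 3 the lowest of the FOG1 arrays.

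How many of the 35 genes reached an unadjusted p under 0.05 depended on the arrays used, most of all on GFP+FOG1 replicate 1. Without GFP+FOG1 replicate 1 the count was 13, of which 12 were lower (34.3% of the 35, against 8.31% of all probe sets in that setting, and 15.5% in either direction) and Dusp6 was higher. The genes added were Fos, Fosb, Fosl1, Jun, Atf3, Egr1, Ier3, Dusp1 and Klf6, and none of the 13 passed after adjustment (smallest limma adjusted p = 0.15). Without GFP+FOG1 replicate 3 it was 4 (8.67% of all probe sets), the same genes as with all arrays, and the median change of the 35 was -0.03, against -0.12 without GFP+FOG1 replicate 1. Without GFP replicate 3 it was 7, with Btg2, Cd83 and Ier5 added (11.2% of all probe sets), and without GFP replicate 2 it was 5, with Klf4 added (10.4% of all probe sets). Cd69, Dusp5, Dusp6 and Klf2 reached an unadjusted p under 0.05 whichever array was left out.

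Besides the 35, 133 genes of 10 further lists were measured, some of pathways that induce these genes and some induced or regulated beside them, and none passed (limma, adjusted over all probe sets). The lists were chosen with earlier results of these data known, so the shares given for them are descriptions and not tests. At an unadjusted p under 0.05, 17 of the 133 were lower (12.8%, against 6.11% of all genes) and 6 higher (4.51%, against 4.92% of all genes), and of the 17 lower genes 5 were other early response genes, 3 surface proteins and 5 KLF2-linked genes. In the Ras and ERK cascade, 3 of 17 measured genes were higher (17.6%, against 4.92% of all genes) and none lower, with a median of 0.05. They were the Ras activator genes Rasgrp1 (0.18) and Rasgrp3 (0.18), which link the B-cell receptor to Ras, and Rasa2 (0.24), which turns Ras off. Groups did not overlap in 4 higher and 3 lower genes of this list (41.2%, against 20.8% of all genes). Rasgrp2, of the same family as Rasgrp1 and Rasgrp3, was among the lower ones at -0.11 (limma adjusted p = 0.44), with the adaptor gene Grb2 at -0.12 and the MEK2 gene Map2k2 at -0.05. Rasgrp1 read 11.60, 11.63 and 11.58 with GFP and 11.76, 11.80 and 11.79 with FOG1. Of 16 genes of SRF, CREB and their coactivators none reached an unadjusted p under 0.05, with changes from -0.12 (Mrtfb, a coactivator of SRF) to 0.05 (Ep300, a histone acetyltransferase) and a median of -0.004. Among 12 AP-1 and EGR partners and repressors, Bach2, a repressor that competes with AP-1 in B cells, was at 0.20 and Batf, an AP-1 factor of activated lymphocytes, at -0.16. The EGR corepressor gene Nab2 was at 0.13. Of 12 JNK and p38 kinase genes 1 was lower at an unadjusted p under 0.05 (8.33%, against 6.11% of all genes), Mapk11 at -0.18. Of 13 genes of calcium, calcineurin and NFAT, Nfatc1, an NFAT gene, was at -0.18 and Ppp3cb, a catalytic subunit of calcineurin, at 0.16, with limma adjusted p of 0.22 and 0.31.

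Other early response genes, outside the 35, were the longest of these lists, with 28 measured genes, a median of -0.09 and 22 negative changes. Of them 5 were lower at an unadjusted p under 0.05 (17.9%, against 6.11% of all genes) and none higher. This list too was chosen with earlier results of these data known, so the share is not a test. Tagap, a GTPase activator of activated lymphocytes, read 8.10, 8.10 and 8.07 with GFP and 7.73, 7.85 and 7.70 with FOG1 (-0.33, limma adjusted p = 0.11). Ccl3, a chemokine of activated B cells, read 6.98, 7.48 and 7.03 against 6.38, 6.43 and 6.62 (-0.69, limma adjusted p = 0.19). Its FOG1 values all lay below the median of all values and may in part be background. Gadd45b, a stress response gene, was at -0.17. Groups did not overlap in these 3 genes, and their FOG1 arrays did not share the descent from replicate 1 to 3 with the exception of Gadd45b. In the list as a whole 15 of 28 genes showed that descent (53.6%, against 18.5% of all genes). Groups did not overlap in 6 of the 28 (21.4%, against 20.8% of all genes).

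**Figure D5:**
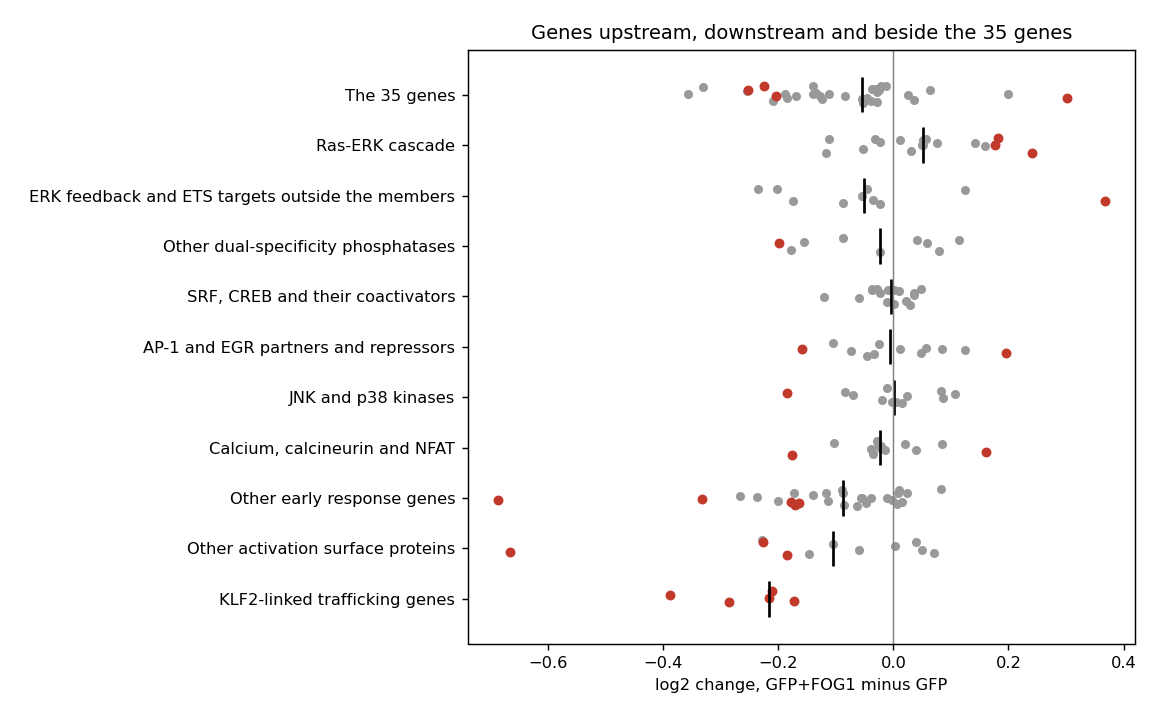
Log2 change, GFP+FOG1 minus GFP, of each gene of the 35 and of 10 further lists, with red points for an unadjusted p under 0.05, grey points for the rest and a bar for the median of each list. Points are spread vertically for display, and the list of KLF2-linked trafficking genes has all 5 genes in red below 0, while the Ras-ERK cascade has a median of 0.05.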

How the data were processed

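Biotin-labelled sense-strand cDNA was hybridised to a mouse gene array, per the labels' protocols. The values are log2 signals as deposited by the authors for 34760 probe sets on 6 arrays; the submitters' processing notes name affy, and for its version and the normalization they give nothing (not given in the sources used here). All that follows starts from these values. The log2 scale was read from the values, which run from 3.12 to 14.07. Precision is limited by the small number of arrays.

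Gene symbols came from the platform annotation, and all 35 symbols were unchanged in RefSeq (GRCm38.p6). For each gene the probe set with the highest mean was used. The comparison of the groups used lmFit and eBayes of limma 3.58.1 under R 4.3.3, with no block and no filter, and Benjamini-Hochberg adjustment over all probe sets. The fit was tested on simulated data. Figures used matplotlib 3.10.9 in Python 3.11.15. Members and lists were chosen with earlier results of these data known. The rule gave array values for the 12 members of smallest p and the leading member of each family, and up to 3 genes per other list; further genes were named after their values were seen. Deviations from the group means of arrays of equal number correlated at -0.07, 0.01 and -0.04. These values showed no pairing by number, but with 3 arrays per group they cannot exclude it. The alternatives were 2 normalizations, filters, variance models, array weights, a block, the mean over probe sets and leaving out each array.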

Additional observations from a re-analysis of the deposited data

How the results depend on the processing

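The count of 0 members past the adjusted threshold was 1 (Cd69) with a variance trend and robust estimation and 0 in every other alternative run, including each array left out. The 4 members at an unadjusted p under 0.05 were 4 or 5 under the alternatives with all arrays, and 4 to 13 without 1 array. The median change of -0.05 lay between -0.07 and -0.03 with all arrays and between -0.12 and -0.03 without 1 array. With the replicate block 0 members passed (smallest limma adjusted p = 0.32) and 4 reached an unadjusted p under 0.05. No array among the 6 had its closest match in the array of the same number. Over all probe sets the block left 9 of 78 calls, and Zfpm1 missed the threshold there (limma adjusted p = 0.097). The 0 passing genes of the other pathway lists became 2 when only 1-symbol probe sets were tested (Etv5 and Tagap), by testing fewer probe sets. The 5 KLF2-linked genes ranged from 2 to 4 without 1 array. These last results were put through the alternatives after seeing the data. The direction of 11 members turned in at least 1 alternative, none of which reached an unadjusted p under 0.05 with all arrays. After median centring Egr2 was 0.0014, Nr4a1 0.013 and Zfp36l2 0.0042, and with array weights Dusp4 was -0.013. Without 1 array the ranges were -0.087 to 0.10 for Dusp4, -0.12 to 0.069 for Egr2, -0.050 to 0.00072 for Btg1, -0.26 to 0.030 for Dusp1, -0.069 to 0.0019 for Dusp2, -0.33 to 0.022 for Fosl2, -0.074 to 0.023 for Ier2, -0.077 to 0.0088 for Myc, -0.14 to 0.15 for Nr4a1, -0.048 to 0.088 for Nr4a2 and -0.051 to 0.016 for Zfp36l2. The cause of these turns was not tested. No pseudocount was needed on log2 values, and the mean over probe sets gives the members the same values, since each has 1 probe set. Depth does not apply to arrays; signal over background was not available, which matters most for Nr4a3.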

Other observations

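Among all genes, the descent of the GFP+FOG1 arrays from replicate 1 to 3 was shared by 619 of the 875 genes with an SD of 0.2 or more among these arrays (70.7%). Of the 20 genes with the largest such SD, a rule chosen after the data were seen, 19 showed it, and in 18 GFP+FOG1 replicate 1 was the highest and replicate 3 the lowest of all 6 arrays. They include the matrix genes Tnc, which encodes tenascin C, Col6a1 and Col6a2, chains of type VI collagen, and Thbs1, which encodes thrombospondin, and the receptor gene Pdgfrb. Tnc read 8.02, 8.31 and 8.46 with GFP and 8.72, 8.61 and 7.25 with FOG1, and Pdgfrb read 8.42, 8.54 and 8.65 against 8.97, 8.59 and 7.59. The exception was the immunoglobulin gene segment Igkv4-91, which read 9.80 on GFP+FOG1 replicate 2 and between 5.54 and 6.11 on the other arrays.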
